A study of Citrus sinensis with 6 samples.

Results

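Genes of galactose metabolism, among them those that make or break down raffinose family sugars, were followed in sweet orange (*Citrus sinensis*) leaves under salt stress. Members were the rows of the deposited table whose KEGG annotation names galactose metabolism and names none of starch and sucrose metabolism, phenylpropanoid biosynthesis, and ascorbate and aldarate metabolism. This rule gave 46 of 29875 listed genes. The rule itself uses no expression value, but it was chosen with earlier results of these data known. RNA was sequenced from leaves of 3 libraries of tissue-culture seedlings kept with 2% NaCl for 14 days and 3 libraries of control seedlings without NaCl. All seedlings were grown from seed, and the labels give no cultivar or genotype that sets the groups apart. By the study's methods each library is a biological replicate that stands for several seedlings. The titles call the NaCl samples leaf and the control samples leaf blades, so the part of the leaf taken and the salt treatment cannot be told apart, and a protocol field that names boron for all samples was set aside because the treatment label of each sample names NaCl or its absence. The control titles name sterile water, whereas the study's methods give salt-free culture medium, and which of these the controls received was not settled here.

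Raffinose family sugars are small soluble carbohydrates that many plants store in seeds or move in the phloem, and that leaves of several species accumulate in drought, cold or salt. Galactinol synthase joins UDP-galactose to myo-inositol, raffinose synthase passes the galactose of galactinol to sucrose, and stachyose synthase passes a further galactose to raffinose. Alpha-galactosidase removes these galactose units again, UDP-glucose 4-epimerase interconverts UDP-glucose and UDP-galactose, and phosphofructokinase commits hexose phosphate to glycolysis. KEGG draws all these enzymes on the same map.

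The deposited identifiers are paired with no gene names, so members are described by their annotated enzyme activity and numbered within each activity by falling mean FPKM (fragments per kilobase of gene and per unit of sequencing depth, a level corrected for gene length). An enzyme activity of the pathway was annotated for 22 members, and the other 24 are grouped by the set of pathways they share. Levels rest on 17307079 to 19520980 reads per NaCl library and 14325408 to 17558452 per control library. The 17285 genes that reached 0.5 FPKM in 3 or more libraries entered a limma fit of log2(FPKM + 1). Calling a gene took a Benjamini-Hochberg adjusted p of 0.05 or less and a fold change (log2FC, NaCl over control on this scale, given ± its standard error) of 1 or more in size. The scale understates the change of low genes. Control replicate 2 stood apart from the other controls, and its score on the main axis of variation was nearest to the NaCl libraries. Scores were -51.7 to -25.6 in NaCl, 9.50 in control replicate 2, and 51.5 and 66.3 in the other controls. Each result is therefore also given without control replicate 2 where that matters. This library was picked after its position was seen, and without it calls over all tested genes rose from 472 to 1800. A call in that setting is thus no separate support for a difference. As a check of tissue, the 54 tested genes of photosynthesis and antenna proteins had median levels of 67.8 to 91.8 FPKM in NaCl and 43.6 to 71.0 FPKM in control libraries, above the medians of all tested genes (10.4 to 10.9 FPKM in NaCl and 8.49 to 10.2 FPKM in control). The 102 tested genes with xylem, phloem or root hair terms had median levels of 8.37 to 10.5 FPKM in NaCl and 8.50 to 11 FPKM in control. In leaf RNA, fewer cells of a type and less RNA per cell cannot be told apart.

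Of the 46 members, 37 were tested. Of the other 9, 5 were listed at 0 in every library and 4 stayed at or below 1.01 FPKM. In the comparison of NaCl with control, 1 member was called higher and 1 was called lower, against 0.978% and 1.75% of all tested genes. At the adjusted p alone the count was again 1 higher and 1 lower, against 1.31% and 1.93% of all tested genes. Every NaCl library lay above every control library for 7 tested members, where 23.6% of all tested genes did so, and below for 6, where 12.4% did so. In either direction, 36.1% of all tested genes had groups that did not overlap. With 3 libraries against 3, complete separation gives an exact permutation p of 0.1, the smallest possible. The median log2FC was 0.15 over the tested members and 0.18 over all tested genes, and 17 of the 37 members lay above that genome-wide median. At an unadjusted p of 0.05 from limma, 7 members were higher (18.9%) and 6 were lower (16.2%). Of all tested genes, 19.1% were higher and 11.2% lower, 30.3% in either direction. The log2FC was positive for 23 tested members and negative for 14, and for 21 and 16 under quantile normalization or upper-quartile scaling. Over all 17285 tested genes it was positive for 11176 and negative for 6109. Those counts were 9852 and 7433 under quantile normalization, and 9869 and 7416 under upper-quartile scaling. For all tested genes, upper-quartile scaling gave 85 called higher and 275 lower, against 169 and 303 without it.

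The raffinose synthase gene was lower in every NaCl library than in any control library. This gene, annotated with galactinol-sucrose galactosyltransferase activity, held 41.0, 19.2 and 15.8 FPKM in NaCl replicates 1 to 3, against 72.2, 50.5 and 97.0 FPKM in control replicates 1 to 3. The highest NaCl library was replicate 1 and the lowest control was replicate 2, and the groups did not overlap. The mean was 25.3 ± 13.7 FPKM in NaCl and 73.2 ± 23.3 FPKM in control (SD, n = 3 each), 0.346 times the control level. The log2FC was -1.56 ± 0.39 (limma adjusted p = 0.0684), so the gene missed the threshold over all genes. Without control replicate 2 it was called (log2FC -1.80, limma adjusted p = 0.0372).

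The stachyose synthase gene, annotated with galactinol-raffinose galactosyltransferase activity, had the same order of groups at a lower level. It held 3.34, 1.96 and 1.26 FPKM in NaCl, against 17.6, 4.82 and 17.5 FPKM in control. Control replicate 2 was again the lowest control, but stayed above all NaCl libraries. The mean was 2.18 ± 1.06 FPKM in NaCl and 13.3 ± 7.37 FPKM in control (SD, n = 3 each), 0.164 times the control level. The log2FC was -2.04 ± 0.50 (limma adjusted p = 0.067). It was called at -2.60 without control replicate 2 (limma adjusted p = 0.0144). Reads of 93 to 219 per NaCl library and 272 to 1174 per control library stood behind these values.

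Galactinol synthase, the enzyme that supplies the galactose donor of both genes above, was annotated for 5 members, and none passed the test. Galactinol synthase gene 1, the most expressed, held 31.8, 9.77 and 4.99 FPKM in NaCl, against 41.7, 23.8 and 109 FPKM in control. NaCl replicate 1 lay above control replicate 2, so the groups overlapped. The mean was 15.5 ± 14.3 FPKM in NaCl and 58.3 ± 45.2 FPKM in control (SD, n = 3 each), and the log2FC was -1.93 ± 0.74 (limma adjusted p = 0.142). Without control replicate 2 the log2FC was -2.42 and the gene was still not called (limma adjusted p = 0.0794).

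Galactinol synthase gene 2 did not follow gene 1. It held 7.42, 43.6 and 5.31 FPKM in NaCl, against 7.79, 26.7 and 3.09 FPKM in control. The high library of each group was replicate 2, and the other libraries of both groups lay between 3.09 and 7.79 FPKM. The log2FC was 0.42 ± 0.92 (limma adjusted p = 0.775), and it turned to -0.46 without NaCl replicate 2 and -0.23 without control replicate 3. Gene 2 made up 79.2% of the summed galactinol synthase level in NaCl replicate 2 and 49.5% in control replicate 2, against 17.3% and 46.7% in NaCl replicates 1 and 3 and 14.9% and 2.64% in control replicates 1 and 3. The summed level of the 5 genes was 42.8, 55.1 and 11.4 FPKM in NaCl and 52.4, 53.9 and 117 FPKM in control, which overlapped.

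The remaining galactinol synthase genes were low. Gene 3 held 2.62, 0.968 and 0.681 FPKM in NaCl and 2.72, 2.26 and 4.42 FPKM in control, a log2FC of -0.82 ± 0.35 (limma adjusted p = 0.169). NaCl replicate 1 lay between control replicates 1 and 2, and the other NaCl libraries lay below all controls. Gene 4 held 0.966, 0.731 and 0.381 FPKM in NaCl and 0.176, 1.16 and 0.346 FPKM in control, a log2FC of 0.15 ± 0.29 (limma adjusted p = 0.739). Gene 5 was listed at 0 in all libraries. Genes 1 and 4 also carry a glycogenin glucosyltransferase term, a related activity of the same glycosyltransferase family.

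**Figure D1:**
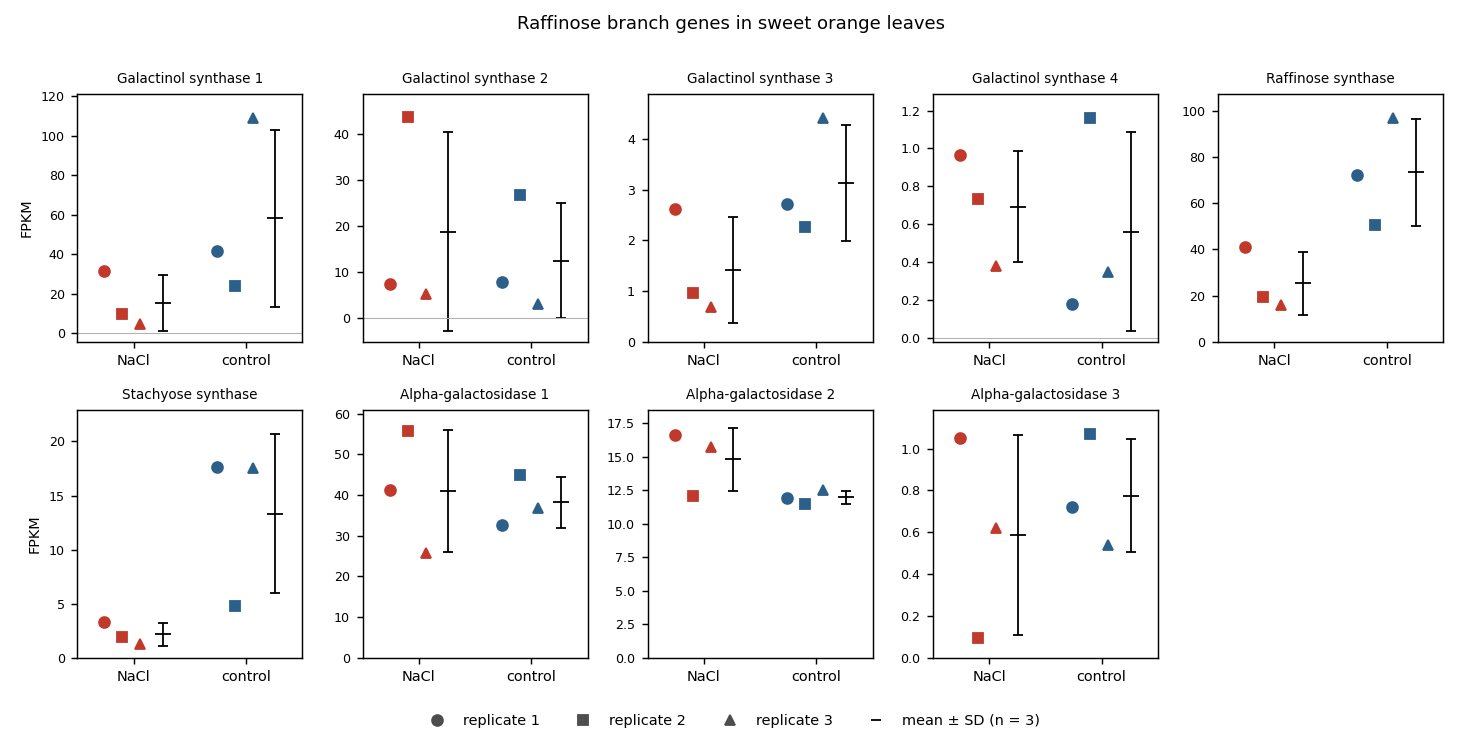
FPKM (linear axis) of the 9 tested genes annotated as galactinol, raffinose or stachyose synthase or alpha-galactosidase, with NaCl libraries in red on the left and control libraries in blue on the right of each panel. Symbols give the replicate number, and the black bar with whiskers is the mean ± SD of 3 libraries. The raffinose synthase and stachyose synthase genes are the panels in which all NaCl libraries lie below all controls, and replicate 2 is the high library of both groups for galactinol synthase gene 2.

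On the side of breakdown, the 4 genes annotated as alpha-galactosidase gave no difference that passed the test. Alpha-galactosidase gene 1 also carries a raffinose alpha-galactosidase term and was the most expressed of them. It held 41.3, 55.8 and 25.7 FPKM in NaCl, against 32.7, 45.0 and 36.8 FPKM in control. The control values lay within the range of the NaCl values. The log2FC was 0.04 ± 0.29 (limma adjusted p = 0.924), and its sign turned under quantile normalization (-0.04) and upper-quartile scaling (-0.08). Gene 2 held 16.6, 12.1 and 15.7 FPKM in NaCl and 11.9, 11.5 and 12.5 FPKM in control, with overlap at the lowest NaCl library (log2FC 0.28 ± 0.16, limma adjusted p = 0.275). Gene 3 held 1.05, 0.0928 and 0.620 FPKM in NaCl and 0.720, 1.07 and 0.537 FPKM in control (log2FC -0.20 ± 0.28, limma adjusted p = 0.649), and the lowest of these values stood on 3 reads. Gene 4 was seen only in control replicate 1, with 4 reads, and was not tested. The summed level of the 4 genes was 59.0, 68.0 and 42.0 FPKM in NaCl and 46.0, 57.5 and 49.8 FPKM in control, 1.10 times the control mean.

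A further 6 members carry no enzyme term but share the exact set of pathways of alpha-galactosidase genes 2 to 4, namely globo-series glycosphingolipid, sphingolipid, glycerolipid and galactose metabolism. Among them was the member that rose, Cs_ont_6g020740. It held 7.91, 8.20 and 10.2 FPKM in NaCl, against 3.90, 3.80 and 3.53 FPKM in control. All NaCl libraries lay above all controls, and the controls differed little among themselves. The mean was 8.78 ± 1.25 FPKM in NaCl and 3.74 ± 0.189 FPKM in control (SD, n = 3 each), 2.34 times the control level. The log2FC was 1.04 ± 0.17 (limma adjusted p = 0.0407), just past the fold threshold. The gene model is short, 336 bases as recovered from the FPKM steps, and 46 to 67 reads per NaCl library and 17 to 23 per control library stood behind the values. The fold change stayed between 0.93 and 1.10 whichever library was left out, but of these 6 fits the call held only without control replicate 2 (limma adjusted p = 0.0198). With another library left out the adjusted p from limma was 0.0593 to 0.193. The gene also missed the call with no filter on low values (limma adjusted p = 0.0606), with voom on recovered reads (limma adjusted p = 0.0773), and by its fold under quantile normalization (log2FC 0.86) and upper-quartile scaling (log2FC 0.93).

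The most expressed gene of the same 6 had 21.8, 14.4 and 17.1 FPKM in NaCl and 12.6, 11.4 and 13.4 FPKM in control. All NaCl libraries lay above all controls, and the log2FC was 0.46 ± 0.18 (limma adjusted p = 0.145). Another of the 6 lay the other way, with 0.602, 0.496 and 0.246 FPKM in NaCl and 1.28, 1.13 and 0.783 FPKM in control (log2FC -0.51 ± 0.20, limma adjusted p = 0.152). A pair of the others had overlapping groups with log2FC values of -0.31 and 0.04, and the last was listed at 0 in all libraries. No sequence of these genes was used here, so reads shared between near-identical members could not be examined.

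Both beta-galactosidase genes, which also belong to glycosaminoglycan and other glycan degradation, were low. Gene 1 had 1.87, 1.11 and 1.44 FPKM in NaCl and 1.19, 1.03 and 1.37 FPKM in control (log2FC 0.16, limma adjusted p = 0.599). Gene 2 had 0.779, 0.278 and 0.690 FPKM in NaCl and 0.947, 0.935 and 1.25 FPKM in control (log2FC -0.38, limma adjusted p = 0.258). Gene 2 was thus below control in every NaCl library, and gene 1 overlapped. A member with no enzyme term that shares glycan degradation and sphingolipid metabolism with them had close levels in all libraries. It had 40.4, 39.5 and 40.7 FPKM in NaCl and 38.1, 40.1 and 35.0 FPKM in control, a log2FC of 0.09 ± 0.12 (limma adjusted p = 0.625).

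For UDP-glucose 4-epimerase, which makes the UDP-galactose used by galactinol synthase, the members had opposite signs and neither passed. Gene 1 held 28.8, 43.1 and 19.9 FPKM in NaCl, against 46.7, 32.9 and 37.4 FPKM in control, a log2FC of -0.39 ± 0.29 (limma adjusted p = 0.373). Gene 2 held 12.0, 23.6 and 11.6 FPKM in NaCl, against 5.16, 21.0 and 4.68 FPKM in control, a log2FC of 0.80 ± 0.56 (limma adjusted p = 0.354). Replicate 2 was the high library of gene 2 in both groups, and control replicate 2 lay above NaCl replicates 1 and 3. Without control replicate 2 the log2FC of gene 2 was 1.43 and it was called (limma adjusted p = 0.0361). Gene 2 made up 29.4%, 35.4% and 36.7% of the summed epimerase level in NaCl replicates 1 to 3, against 9.94%, 38.9% and 11.1% in control replicates 1 to 3. Of the 2 other members on the amino sugar and nucleotide sugar map, 1 was listed at 0 and the other, annotated with an adenylyltransferase activity, had 12.3, 13.7 and 12.4 FPKM in NaCl and 7.82, 13.4 and 6.21 FPKM in control (log2FC 0.50, limma adjusted p = 0.237).

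Aldose 1-epimerase interconverts the alpha and beta forms of galactose and glucose, and its 3 genes had positive log2FC values with overlapping groups. Gene 1 held 64.3, 52 and 53.6 FPKM in NaCl and 49.2, 33.3 and 65.3 FPKM in control (log2FC 0.24 ± 0.25, limma adjusted p = 0.525), and without control replicate 2 its fold change was -0.01. Gene 2 had 24.9, 19.0 and 22.6 FPKM in NaCl and 9.72, 23.7 and 12.1 FPKM in control (log2FC 0.60, limma adjusted p = 0.233). Gene 3 had a log2FC of 0.11 (limma adjusted p = 0.719). The 2 members with no term but the same pathways, glycolysis and galactose metabolism, were low and separated, with all NaCl libraries above all controls. The first had 1.82, 1.31 and 1.61 FPKM in NaCl and 0.818, 0.181 and 0.815 FPKM in control (log2FC 0.71, limma adjusted p = 0.113). The second had 0.559, 1.27 and 0.562 FPKM in NaCl and 0.257, 0.520 and 0.225 FPKM in control (log2FC 0.41, limma adjusted p = 0.263). Few reads stood behind both. The first had 35, 26 and 35 reads in NaCl and 16, 3 and 13 in control. The second had 15, 35 and 17 reads in NaCl and 7, 12 and 5 in control.

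A group of 4 members without enzyme terms shares folate biosynthesis, glycerolipid, fructose and mannose metabolism, and pentose and glucuronate interconversions with galactose metabolism. Its 2 expressed genes were both higher on average in NaCl. Cs_ont_6g016620 held 51.7, 41.7 and 59.5 FPKM in NaCl, against 31.7, 28.7 and 25.4 FPKM in control. The groups did not overlap, and control replicate 2 lay with the other controls. The mean was 51 ± 8.91 FPKM in NaCl and 28.6 ± 3.16 FPKM in control (SD, n = 3 each), 1.78 times the control level, with a log2FC of 0.80 ± 0.17 (limma adjusted p = 0.0558). The other had 90.1, 78.4 and 73.0 FPKM in NaCl and 46.6, 74.8 and 45.8 FPKM in control. Here control replicate 2 exceeded NaCl replicate 3, and the log2FC was 0.55 ± 0.22 (limma adjusted p = 0.151). Summed over the group, levels were 142, 120 and 132 FPKM in NaCl and 78.5, 104 and 71.3 FPKM in control, with no overlap and 1.56 times the control mean. The third gene had 0 FPKM in all NaCl libraries and at most 0.144 FPKM in control, too low for a fold, and the last was listed at 0 throughout.

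The member that fell and had the most negative fold change of all, Cs_ont_1g017780, has no enzyme term but the same 5 pathways as the phosphofructokinase genes, among them glycolysis and the pentose phosphate pathway. It held 4.71, 9.45 and 3.24 FPKM in NaCl, against 52.8, 19.8 and 70.0 FPKM in control. All NaCl libraries lay below all controls, with the highest NaCl library and the lowest control both numbered 2. The mean was 5.80 ± 3.25 FPKM in NaCl and 47.5 ± 25.5 FPKM in control (SD, n = 3 each), 0.122 times the control level. The log2FC was -2.76 ± 0.52 (limma adjusted p = 0.0475), with 141 to 375 reads per NaCl library and 657 to 2238 per control library. The fold change stayed between -3.29 and -2.40 whichever library was left out, and of these 6 fits the call held only without control replicate 2 (limma adjusted p = 0.0153). With another library left out the adjusted p from limma was 0.0548 to 0.196. It was 0.0676 with no filter, 0.0537 with a pseudocount of 0.01, 0.0517 with upper-quartile scaling and 0.0517 with voom.

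The 4 genes annotated as phosphofructokinase differed in direction, and none was called. Cs_ont_4g009550, the most expressed, held 38.1, 40.4 and 34.3 FPKM in NaCl, against 55.0, 60.3 and 66.0 FPKM in control. The groups did not overlap, and control replicate 2 lay between the other controls. The mean was 37.6 ± 3.07 FPKM in NaCl and 60.4 ± 5.50 FPKM in control (SD, n = 3 each), with a log2FC of -0.67 ± 0.14 (limma adjusted p = 0.052). The limma adjusted p was 0.0445 under quantile normalization (log2FC -0.73) and 0.049 under upper-quartile scaling (log2FC -0.79), both short of the fold threshold. Apart from the fit without control replicate 2, the other settings gave 0.0503 (filter of 1 FPKM) to 0.216 (without NaCl replicate 3). Phosphofructokinase gene 2 lay the other way, with 16.5, 18.2 and 20.1 FPKM in NaCl, against 8, 12.1 and 9.20 FPKM in control. All its NaCl libraries lay above all controls, and the log2FC was 0.85 ± 0.18 (limma adjusted p = 0.0561). Without control replicate 2 it was called (log2FC 1, limma adjusted p = 0.0174).

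Phosphofructokinase genes 3 and 4 overlapped between groups, with log2FC values of 0.37 and 0.32 (limma adjusted p = 0.341 and 0.611). For both, control replicate 2 was the highest of the 6 libraries, at 7.01 FPKM for gene 3 and 6.35 FPKM for gene 4. The second unnamed gene of the same pathways had 5.67, 6.32 and 6.18 FPKM in NaCl and 2.95, 4.53 and 2.95 FPKM in control, without overlap (log2FC 0.67 ± 0.20, limma adjusted p = 0.0899), and the third was listed at 0. Summed over the 4 annotated genes the level was 66.3, 69.1 and 63.1 FPKM in NaCl and 67.9, 85.8 and 81.4 FPKM in control, with NaCl replicate 2 above control replicate 1.

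**Figure D2:**
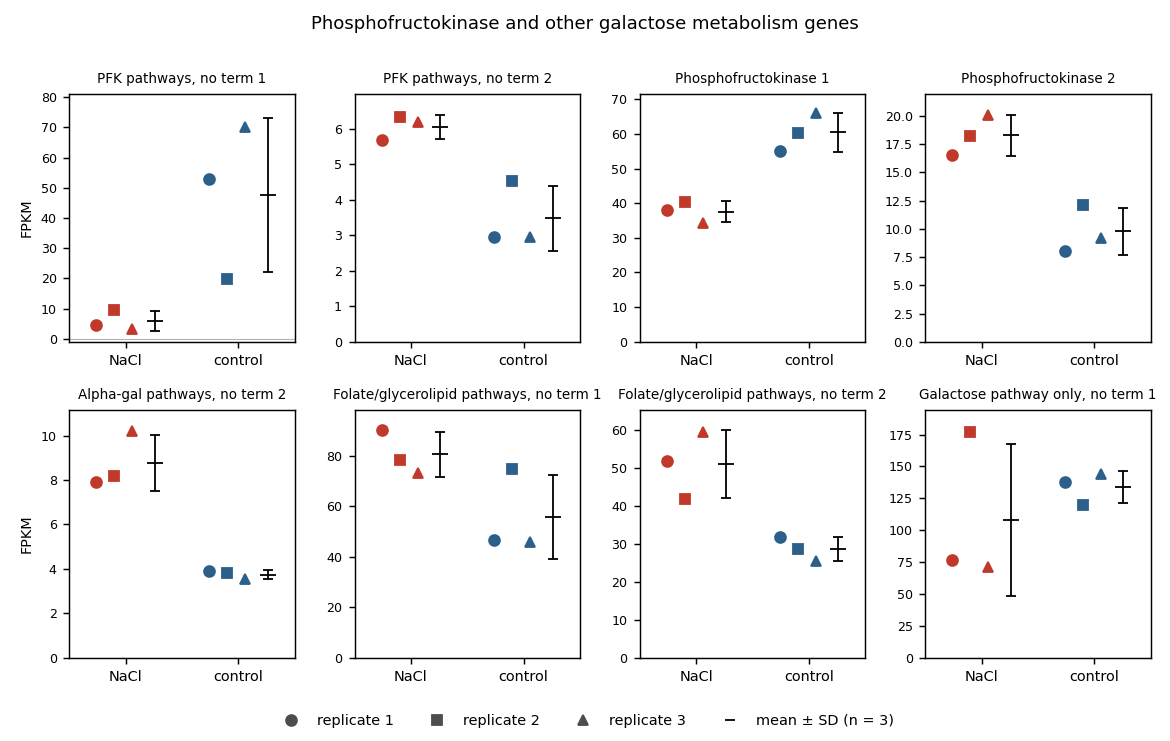
FPKM (linear axis) of 8 further tested members, with NaCl libraries in red on the left and control libraries in blue on the right of each panel. Symbols give the replicate number and black bars the mean ± SD of 3 libraries. PFK pathways, no term 1 is Cs_ont_1g017780, with NaCl libraries at 3.24 to 9.45 FPKM below all controls, and Alpha-gal pathways, no term 2 is Cs_ont_6g020740, with NaCl libraries at 7.91 to 10.2 FPKM above all controls.

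Galactose metabolism is the only pathway of the galactinol, raffinose and stachyose synthase genes and alpha-galactosidase gene 1. The last 6 members carry it as their only pathway too, and have no term. The most expressed of them was also the most expressed of all 46 members, with 76.8, 177 and 71.0 FPKM in NaCl and 138, 120 and 144 FPKM in control. NaCl replicate 2 was the highest of all libraries and the other NaCl libraries were the lowest, so the groups overlapped (log2FC -0.43 ± 0.35, limma adjusted p = 0.427). The second by level had 43.8, 66.0 and 38.8 FPKM in NaCl and 18.6, 72.1 and 15.5 FPKM in control. Control replicate 2 was its highest library, and the log2FC was 0.78 with all libraries (limma adjusted p = 0.367) and 1.45 without that replicate (limma adjusted p = 0.022). The next by level were low, with log2FC values of -0.31 and -0.43 (limma adjusted p = 0.395 and 0.383), and the others were not tested.

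**Figure D3:**
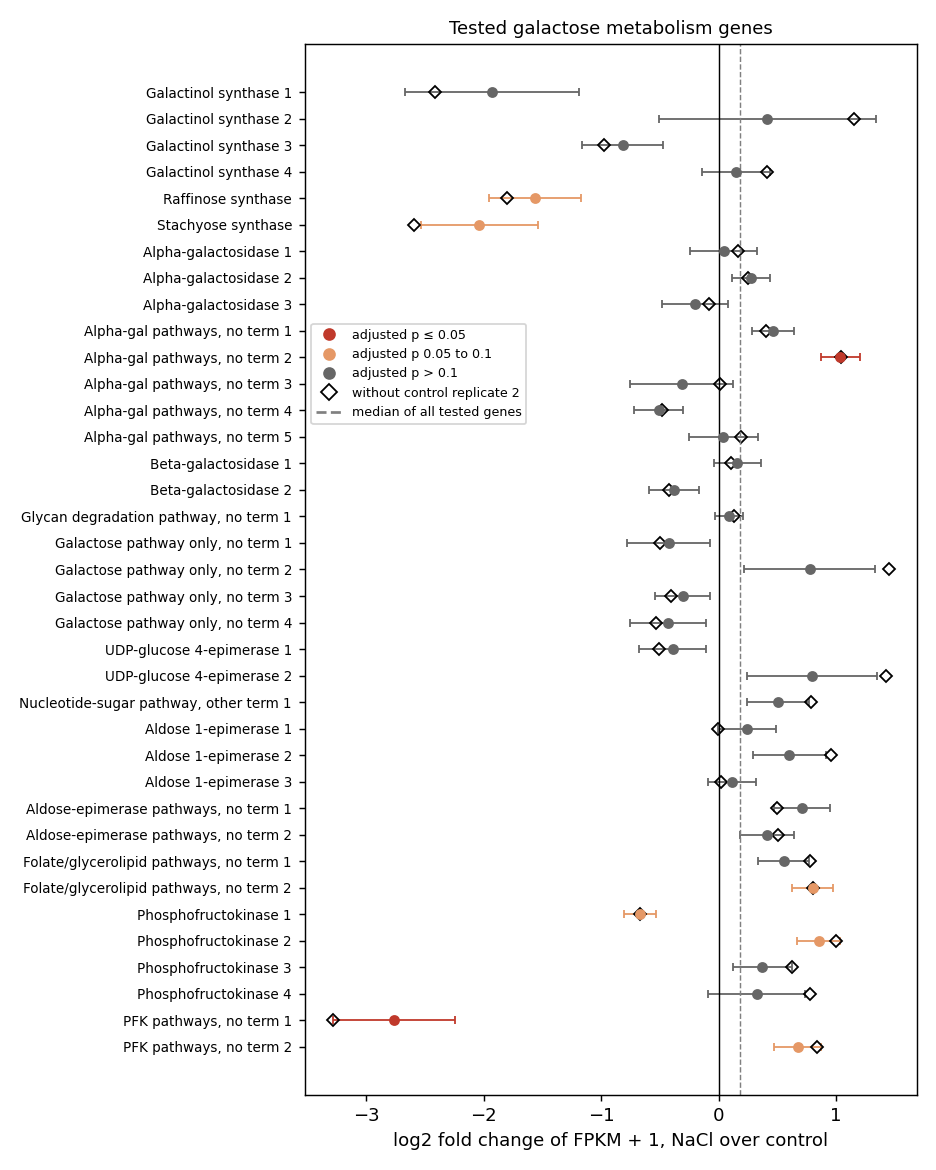
Log2 fold change (NaCl over control, on log2(FPKM + 1)) of the 37 tested members, with filled points and whiskers for the estimate ± standard error from limma, red where the adjusted p was at most 0.05, orange from there to 0.1 and grey above, and open diamonds for the fit without control replicate 2. The dashed line is the median of all tested genes, 0.18. The raffinose and stachyose synthase genes, galactinol synthase gene 1 and Cs_ont_1g017780 (PFK pathways, no term 1) lie furthest to the left.

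Control replicate 2 bore on many of these values. For the 23 tested members whose NaCl mean differed from the mean of control replicates 1 and 3 by at least 0.5 on the log2 scale, the position of control replicate 2 was taken on a line from that control mean (0) to the NaCl mean (1). Its median was 0.58 (quartiles 0.45 and 1.09) over the members and 0.57 (quartiles 0.28 and 0.86) over the 7926 genes of the whole table that met the same condition. It lay past 1, beyond the NaCl mean, for 7 of the 23 members (30.4%) and for 17.6% of those 7926 genes. All 7 were members that were higher in NaCl than in control replicates 1 and 3, among them UDP-glucose 4-epimerase gene 2, galactinol synthase gene 2, aldose 1-epimerase gene 2 and phosphofructokinase genes 3 and 4. For the raffinose synthase gene the position was 0.40, for the stachyose synthase gene 0.65 and for Cs_ont_1g017780 0.48. For Cs_ont_6g020740, Cs_ont_6g016620 and Cs_ont_4g009550 it was 0.03, 0.02 and -0.0009, so control replicate 2 lay with the other controls for these 3 genes.

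**Figure D4:**
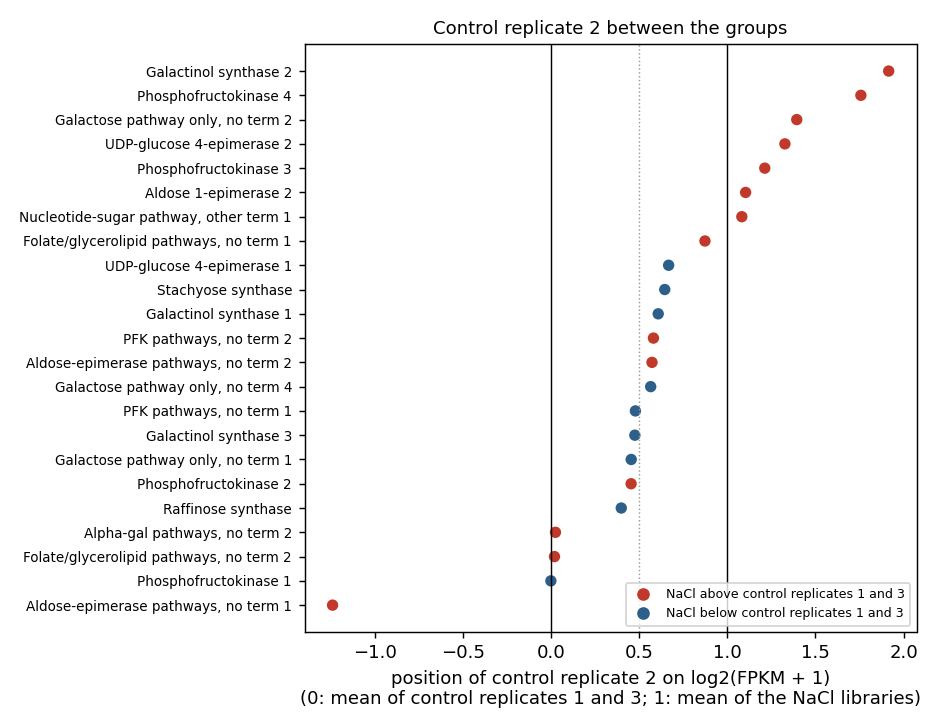
Position of control replicate 2 on log2(FPKM + 1), on a horizontal axis where 0 is the mean of control replicates 1 and 3 and 1 is the mean of the NaCl libraries, for the 23 tested members in which these means differ by at least 0.5. Points are red where NaCl is above control replicates 1 and 3 and blue where it is below. The 7 points to the right of 1 are all red, and Cs_ont_6g020740, Cs_ont_6g016620 and Cs_ont_4g009550 lie at 0.

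Without control replicate 2, 4 members were called higher and 3 lower, against 5.3% and 5.11% of all tested genes in that setting. At the adjusted p alone, 10 were higher and 4 lower, against 16.5% and 7.89%. The 3 called lower were the raffinose synthase gene, the stachyose synthase gene and Cs_ont_1g017780. The 4 called higher were Cs_ont_6g020740, phosphofructokinase gene 2, UDP-glucose 4-epimerase gene 2 and the second of the 6 members with galactose metabolism alone and no term. A further 6 members passed the adjusted p but not the fold in that setting, all higher in NaCl. They were aldose 1-epimerase gene 2 (log2FC 0.96, limma adjusted p = 0.023), the adenylyltransferase-term gene (0.79, limma adjusted p = 0.0254), phosphofructokinase gene 3 (0.63, limma adjusted p = 0.0469), the second unnamed gene of its pathways (0.84, limma adjusted p = 0.0224), and the most expressed gene of the folate and glycerolipid group (0.78, limma adjusted p = 0.0216) with Cs_ont_6g016620 (0.81, limma adjusted p = 0.0391). Cs_ont_4g009550 passed the adjusted p on the lower side (log2FC -0.67, limma adjusted p = 0.0295). Galactinol synthase gene 2 and phosphofructokinase gene 4 moved to a log2FC of 1.15 and 0.78 and did not pass (limma adjusted p = 0.376 and 0.0714). With any other single library left out, limma called 0 members. Over the 17285 tested genes, those fits called 0 to 51 higher and 0 to 76 lower. At an unadjusted p of 0.05 those 5 fits gave 4 to 7 members higher (10.8% to 18.9%) and 4 to 8 lower (10.8% to 21.6%), against 9.84% to 18.3% and 7.74% to 10.8% of all tested genes.

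The rule set aside 23 of the 69 galactose metabolism genes because they also belong to starch and sucrose, phenylpropanoid or ascorbate metabolism, such as beta-fructofuranosidase, hexokinase and phosphoglucomutase genes. Of these, 16 were tested, and limma and voom called 0 in either direction. At an unadjusted p of 0.05 by either tool, 6 were higher (37.5%) and 1 was lower (6.25%). Over all tested genes, limma gave 19.1% higher and 11.2% lower, and voom 19.7% and 11.3%. The limma count higher fell to 1 without NaCl replicate 2, NaCl replicate 3, control replicate 1 or control replicate 3. It was 5 without NaCl replicate 1 and 9 without control replicate 2. The median log2FC of the 16 genes was 0.47. Of these, 1 was called without control replicate 2. Of 91 tested genes of starch and sucrose metabolism outside the galactose map, 1 was called higher and 2 lower, with a median log2FC of 0.30. Of 95 tested genes of amino sugar and nucleotide sugar metabolism, 1 was called higher and 2 lower, with a median of 0.09. The difference between these lists and the members was not tested.

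The process annotation of the members also named stress responses. Of the 19 members with process terms used here, 6 carried the term response to oxidative stress, namely galactinol synthase genes 1, 3 and 4, the raffinose and stachyose synthase genes and alpha-galactosidase gene 1. Galactinol synthase genes 1 and 3 and the raffinose synthase gene carried responses to abscisic acid and to water deprivation, and the 2 galactinol synthase genes also carried response to salt stress. Among these 6, galactinol synthase gene 4 and alpha-galactosidase gene 1 had a higher mean in NaCl than in control, and the other 4 had a lower mean, with adjusted p from limma above 0.05 for each. These terms describe annotation, and only the values above are measurements.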

How the data were processed

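Leaf RNA of 6 libraries, 3 from NaCl-treated and 3 from control seedlings, had been aligned with HISAT2 and counted by the authors (HTSeq in the submitters' processing notes, featureCounts in the paper's methods). The deposited table gives FPKM per gene, made by the authors from these counts. Its columns of the authors' own comparison (fold changes, p-values, calls and group means) were not used. FPKM steps gave whole reads for 100% of 23073 genes above 0 in any library (tolerance 1e-09), and these reads are used for depth and for an alternative test. One read per kilobase was worth 0.0512 to 0.0698 FPKM.

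Values were tested as log2(FPKM + 1) with limma 3.58.1 (R 4.3.3, mean-variance trend) over genes that reached 0.5 FPKM in 3 or more libraries. Benjamini-Hochberg adjustment ran over all 17285 genes. A call took an adjusted p of 0.05 or less and a log2 fold change of 1 or more in size. On simulated data over 17285 genes, 85 of 100 genes changed by 1.5 and 98 of 100 changed by 3 on the log2 scale were recovered, with 11 unchanged genes called. The simulated noise was independent between libraries with the variances of the fit, and no library was set apart. Only genes above a set mean level were changed. These rates therefore do not give the power for the members. Alternatives were each library left out, the replicate number as a block, other pseudocounts and filters, quantile normalization, upper-quartile scaling, and voom on the recovered reads.

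Genes named were those past the adjusted p, all galactinol, raffinose and stachyose synthase and alpha-galactosidase members, the most expressed member of each other class, and the 3 largest changes in each direction. Further members are given because their values complete a class, and were chosen after their values were seen. The members and lists were chosen with earlier results of these data known. No identifier matched the RefSeq gene table (0 of 29875), so no gene names, coordinates or sequences are given, and some process terms were not used here.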

Additional observations from a re-analysis of the deposited data

How the results depend on the processing

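The counts of calls depended on single libraries and on several settings, and the cause was not tested. Over all genes, leaving out 1 library gave 0 to 916 genes called higher and 0 to 884 lower, with the highest counts without control replicate 2. Over the members, leaving out 1 library gave 0 to 4 called higher and 0 to 3 lower. With no filter on low values 12 genes were called higher and 28 lower, with a pseudocount of 0.01 110 and 198, and with upper-quartile scaling 85 were called higher. Over all genes, quantile normalization called 124 higher and 347 lower, voom called 145 and 267, and upper-quartile scaling called 275 lower. Members called higher numbered 0 with no filter, quantile normalization, upper-quartile scaling and voom. Members called lower numbered 0 with no filter, a pseudocount of 0.01, upper-quartile scaling and voom. With 37 tested members, these counts do not set the members apart from all tested genes. The median log2 fold change of the members was 0.0398 to 0.234 with 1 library left out, 0.0913 with no filter, 0.24 with a filter of 1 FPKM, 0.25 with a pseudocount of 0.1, 0.25 with 0.01, 0.0865 with upper-quartile scaling and 0.25 with voom. It was positive in each of these, as was the median over all tested genes. That median was 0.138 to 0.250 with 1 library left out, 0.088 with no filter, 0.0774 with upper-quartile scaling and 0.22 with voom. With 1 library left out, the members lay above it only without NaCl replicate 3. In the other settings listed they lay above it.

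Same-numbered libraries did not deviate together (correlations of their deviations from the group means of -0.0343, 0.026 and -0.071), so the replicate number was not taken as a pairing. These correlations are over all tested genes and do not speak for single genes. With the replicate block, 1 gene was called higher and 6 lower over all genes, and 0 members were called in either direction (limma adjusted p = 0.0964 for Cs_ont_6g020740 and 0.0991 for Cs_ont_1g017780). At an unadjusted limma p of 0.05 the block gave 6 members higher (16.2%) and 5 lower (13.5%), where 15.2% and 10.1% of all tested genes passed.

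Among the named genes, alpha-galactosidase gene 1 turned to -0.0397 under quantile normalization and -0.0788 under upper-quartile scaling. With 1 library left out its log2 fold change was -0.21 to 0.34, that of alpha-galactosidase gene 3 was -0.41 to 0.0473, aldose 1-epimerase gene 1 -0.0061 to 0.47, galactinol synthase gene 4 -0.027 to 0.41 and galactinol synthase gene 2 -0.46 to 1.15. Of the alternatives for named genes, 218 kept direction and side of the threshold, 20 lost a call, 3 gained one and 9 reversed. All 20 lost calls were those of Cs_ont_6g020740 and Cs_ont_1g017780, the only named genes called with all libraries. Most of the 218 were genes called neither with all libraries nor in the alternative.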
